A study of Homo sapiens with 12 samples.

Results

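Of the 57820 genes measured in the G401 rhabdoid tumour cell line, 57 encode the splicing factors described here. The rule used gene symbols and no measured value, but these families were picked with earlier results of these data known. They comprise 11 SR proteins, 25 heterogeneous nuclear ribonucleoproteins (hnRNPs) and 9 SF3 subunits of the U2 small nuclear ribonucleoprotein (snRNP). They also include 3 factors that recognise the 3' splice site (U2AF1, U2AF2 and SF1) and 9 regulators of alternative splicing (the PTBP, MBNL and ESRP genes and RBFOX2). A further 125 rows with matching symbols were pseudogenes or antisense genes and were left out, and SRSF8 was the 1 of 12 SRSF symbols not matched to a row. Of the 57 genes, 52 passed the filter on low counts and were tested among 15750 genes.

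G401 has lost functional SMARCB1, which belongs to the core of SWI/SNF (BAF) chromatin remodellers, and the labels give the SMARCB1(-/-) genotype for all 4 groups. Doxycycline induced GFP, as the control protein, or SMARCB1 in every culture. The cells received the solvent DMSO or dBRD9-A for 24 hours. dBRD9-A is a small molecule that degrades BRD9, which is part of non-canonical BAF. The groups were GFP cells in DMSO, SMARCB1 cells in DMSO, GFP cells with dBRD9-A and SMARCB1 cells with dBRD9-A, with 3 replicates each. The labels do not give the dose of either agent, the duration of the induction, or whether the inducible lines were clones. No group was left uninduced, so a difference between the inducible lines cannot be told apart from an effect of SMARCB1. They also do not say whether replicates were separate cultures, so p-values measure the spread between these samples, which may be technical.

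Introns are removed by the spliceosome, which assembles anew on each intron. SF1 first binds the branch point while U2AF1 and U2AF2 bind the 3' splice site, and the U2 snRNP with its SF3A and SF3B subunits then takes the place of SF1 at the branch point. SR proteins bind exons through RNA recognition motifs and mostly promote their inclusion, whereas many hnRNPs, PTBP1 among them, repress exons or splice sites. MBNL, RBFOX and ESRP proteins switch exons between cell types, and several SR and hnRNP genes also limit their own transcripts through exons that lead to decay. The values here are counts per gene, so neither transcript isoforms nor splicing outcomes were measured.

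Libraries held 34.97 to 58.54 megacounts (1 megacount is 1e6 counts assigned to genes), and levels are given as counts per megacount (CPM) with replicates 1 to 3 of a group in that order. SMARCB1 checked which protein was induced: its counts were 0 to 2 in the 6 GFP libraries. Its level was 1810 to 1910 CPM in SMARCB1 cells in DMSO and 1280 to 1330 CPM with dBRD9-A. The dBRD9-A labels have no such check, since BRD9 protein is not measured here. The mean of BRD9 transcript in DMSO and with dBRD9-A was 38.3 and 41.1 CPM in GFP cells, and 46.9 and 47.5 CPM in SMARCB1 cells. The mesenchymal marker VIM, which rhabdoid cells express, lay between 1260 and 1340 CPM in GFP cells and between 2150 and 2400 CPM in SMARCB1 cells. Of 11 markers of leukocytes, endothelium, epithelium and hepatocytes, 6 were at or under 3 counts in every library, PTPRC and CD3E among them at 0. The endothelial marker PECAM1 was also on the planned list, but it is not among the 11 and has no value here. The sum of the 11 was 0.444 to 0.873 CPM in GFP libraries and 1.35 to 2.2 CPM in SMARCB1 libraries. The markers did not move together: in DMSO, EPCAM was at 0.679 CPM in GFP cells and 0.0199 CPM in SMARCB1 cells, whereas VWF went from 0.0521 to 0.742 CPM and CDH1 from 0.0629 to 0.792 CPM. Their part in the results was not tested. Spike-in RNAs made up 0.9634% to 1.302% of each library. Scaling by them in place of TMM (trimmed mean of M values) moved the median change of all genes, as log2, to 0.17 for SMARCB1 in DMSO and 0.36 for dBRD9-A in GFP cells. The same scaling put that median at -0.14 for dBRD9-A in SMARCB1 cells, -0.32 for SMARCB1 under dBRD9-A and -0.49 for the interaction. How the spike-ins were added is not given in the labels. Directions below are on the TMM scale, relative to the bulk of genes, and values on the spike-in scale are given for the genes whose changes are described.

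The splicing factor genes together took 1.473% ± 0.017 of gene counts in GFP cells in DMSO (SD, n = 3), and 1.434% ± 0.017 in SMARCB1 cells in DMSO. With dBRD9-A the shares were 1.465% ± 0.012 in GFP cells and 1.419% ± 0.012 in SMARCB1 cells. Per kilobase of exon, HNRNPA1 was the most abundant in GFP cells in DMSO at 336 CPM per kb. HNRNPK followed at 290 CPM per kb and SRSF1 at 226 CPM per kb. HNRNPA1 and HNRNPK bind RNA in nucleus and cytoplasm, and SRSF1 is a founding member of the SR family. The 3 lowest of the tested genes per kilobase were the HNRNPUL2-BSCL2 readthrough gene at 3.32, PTBP2 at 3.52 and SRSF12 at 3.83 CPM per kb. The most abundant SF3 subunit per kilobase was SF3B5 at 152 CPM per kb and the lowest was SF3B4 at 7.27 CPM per kb, a spread that exon lengths from a single annotation may distort.

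The 5 genes that did not pass the filter were the epithelial splicing regulators ESRP1 and ESRP2, MBNL3, and the hnRNP C-like genes HNRNPCL1 and HNRNPCL4. ESRP1 had 1 to 14 counts per library and ESRP2 had 0 to 9. In DMSO, ESRP1 had 4 to 6 counts in GFP libraries and 3 to 14 in SMARCB1 libraries. With dBRD9-A it had 1 to 3 and 6 to 13. ESRP2 had 4 to 9 and 0 to 3 counts in DMSO, and 1 to 5 and 0 to 1 with dBRD9-A. MBNL3 had 0 to 5 counts, HNRNPCL1 0 to 1 and HNRNPCL4 0 to 2. The floor of 3 counts corresponded to 0.0516 to 0.0847 CPM, so these genes were at or near the limit of detection and no fold change is given for them.

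Between SMARCB1 and GFP cells in DMSO, 33 of the 52 tested splicing factor genes differed (edgeR's quasi-likelihood test, adjusted p under 0.05). In SMARCB1 cells 12 were higher and 21 lower. Over all 15750 genes the share called was 65.0%, with 33.5% higher and 31.6% lower. The members' shares were 63.5% called, 23.1% higher and 40.4% lower. The changes were small: the median size of a log2 fold change was 0.123 for the members, 0.284 for all tested genes and 0.184 for genes of at least 100 CPM. Only HNRNPH3 and PTBP2 were called and changed by at least 0.5 on the log2 scale, which is 3.85% of the members against 28.0% of all genes. Of genes of at least 100 CPM, 78.1% were called and 14.6% were called with a change of at least 0.5. On the spike-in scale 28 members were called, 25 higher and 3 lower, and the 3 were HNRNPH3, PTBP2 and SRSF12. Of all 15750 genes, 9412 were called on that scale, 6831 higher and 2581 lower. In bulk RNA, a change in the share of cells that express a gene and in RNA per cell cannot be told apart. The groups did not overlap for 30 of the 33 called members, a separation seen in 68.7% of all tested genes.

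**Figure D1:**
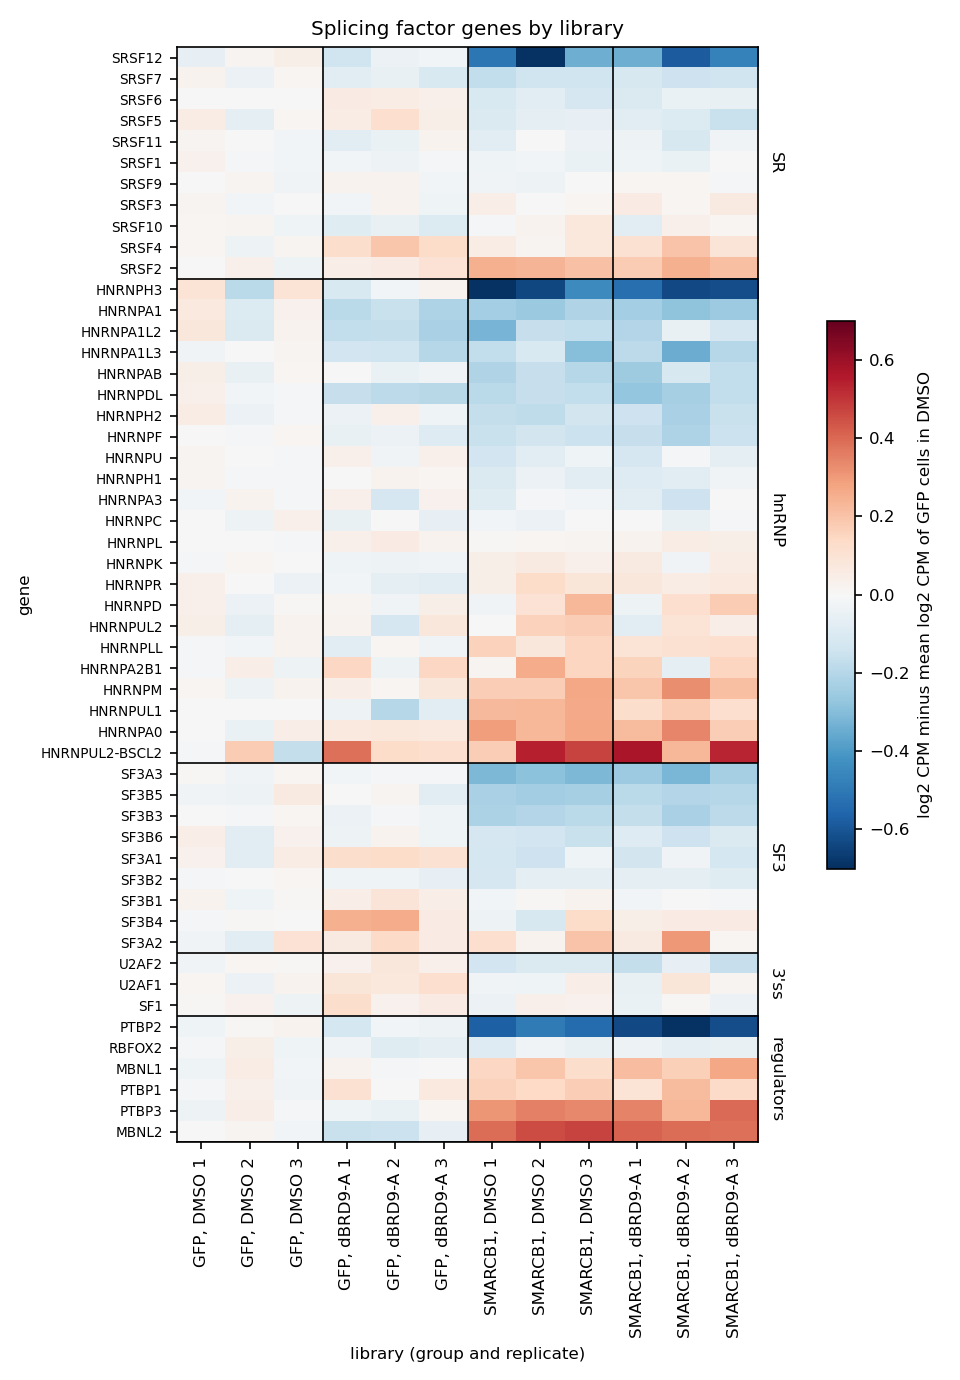
Heat map of the 52 tested splicing factor genes (rows, grouped by role and ordered by their change with SMARCB1 in DMSO) in the 12 libraries (columns); colour is log2 CPM on the TMM scale minus the mean of GFP cells in DMSO, and the scale ends at 0.7 in either direction. HNRNPH3, PTBP2 and SRSF12 are lower and MBNL2 and PTBP3 are higher in all 6 SMARCB1 libraries than in any GFP library; on the spike-in scale PTBP3 under dBRD9-A differed by 0.02 (log2).

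Among SR proteins, 1 of 11 rose and 3 fell with SMARCB1 in DMSO (9.09% and 27.3%, against 33.5% and 31.6% of all genes). The largest fall was that of SRSF12, a little-expressed SR family member that is known to act as a splicing repressor. SRSF12 was at 13.2, 13.9 and 14.2 CPM in GFP cells and 9.71, 8.54 and 10.9 CPM in SMARCB1 cells. The groups did not overlap, and the log2 fold change was -0.49 (adjusted p = 2.61e-05, SE 0.08), falling also on the spike-in scale (-0.32). SRSF2, which binds exonic enhancers, was the SR gene that rose. It was at 351, 359.8 and 342.5 CPM in GFP cells and 417, 413 and 405 CPM in SMARCB1 cells, with no overlap. The log2 fold change was 0.23 (adjusted p = 1.32e-06, SE 0.03). Its spike-in value was 0.40, on a scale where the median of all genes was 0.17. SRSF2 shares its locus with MFSD11 on the opposite strand and MIR636, and the use of strand in the authors' counting is not given in the sources used here. SRSF7, which also serves in mRNA export, had a log2 fold change of -0.15 and SRSF6 one of -0.10. The 2 were called (adjusted p = 8.23e-05 and 0.00183), but on the spike-in scale they moved to 0.02 and 0.07. The abundant SRSF1 and SRSF3 had log2 fold changes of -0.03 and 0.02 and did not pass the test (adjusted p = 0.252 and 0.473). SRSF1 lay between 715 and 738 CPM in GFP cells and between 701 and 713 CPM in SMARCB1 cells.

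Among hnRNPs, 7 of 23 rose and 10 fell in DMSO (30.4% and 43.5%, against 33.5% and 31.6% of all genes). HNRNPH3, a member of the hnRNP H/F family that binds G-rich RNA, fell the most. It was at 102.5, 84 and 102 CPM in GFP cells and 59.3, 61.6 and 70.3 CPM in SMARCB1 cells. GFP replicate 2 was the lowest of its group, yet it lay above all 3 SMARCB1 libraries. The log2 fold change was -0.59 (adjusted p = 5.98e-07, SE 0.07), and -0.42 on the spike-in scale. Its relatives moved less: HNRNPH2, HNRNPF and HNRNPH1 had log2 fold changes of -0.16, -0.14 and -0.07 and were called (adjusted p = 0.000353, 7.62e-05 and 0.0213), while on the spike-in scale they were 0.01, 0.02 and 0.10. HNRNPH3 overlaps PBLD and RUFY2 on the opposite strand in GENCODE release 29, and the part of their reads was not tested.

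HNRNPA1, which represses exons and has many processed pseudogene copies, was at 1503, 1346 and 1464 CPM in GFP cells and 1218, 1200 and 1242 CPM in SMARCB1 cells. The groups did not overlap, with GFP replicate 2 the lowest of its group. The log2 fold change was -0.24 (adjusted p = 6.91e-06, SE 0.03). Its copies HNRNPA1L2 and HNRNPA1L3 were called lower as well, with log2 fold changes of -0.22 and -0.19, but their sequences are nearly the same as that of HNRNPA1 and their counts depend on how reads were divided. When HNRNPA1 was summed with 76 rows of its family, which held 11.5% to 12.6% of the sum, the log2 ratio of the sum was -0.23. HNRNPAB and HNRNPDL, 2 hnRNPs of the type that carries a pair of RNA recognition motifs, had log2 fold changes of -0.19 and -0.17 and were called. None of these 5 falls was called on the spike-in scale, and their values lay between -0.07 and -0.01. HNRNPU, a large nuclear matrix protein, had a log2 fold change of -0.08 (adjusted p = 0.0374), which lost its call in 4 of 12 fits that each left out 1 library and turned to 0.09 on the spike-in scale.

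The hnRNP that rose the most with replicates apart was HNRNPA0, a member of the hnRNP A/B family known for binding AU-rich elements. HNRNPA0 was at 235.5, 228.5 and 244 CPM in GFP cells and 289, 277 and 285 CPM in SMARCB1 cells. Every SMARCB1 library was above every GFP library, and the log2 fold change was 0.27 (adjusted p = 5.61e-06, SE 0.04). HNRNPUL1, an HNRNPU-like protein, was at 156, 156 and 155 CPM in GFP cells and 182, 183 and 187 CPM in SMARCB1 cells. The groups were apart, with a log2 fold change of 0.24 (adjusted p = 7.44e-06, SE 0.03); TGFB1 overlaps it on the opposite strand. HNRNPM, which binds GU-rich RNA, HNRNPLL, known for CD45 splicing in lymphocytes, and HNRNPR rose by log2 fold changes of 0.21, 0.13 and 0.09 (adjusted p = 7.05e-05, 0.00144 and 0.0162). All 5 were higher on the spike-in scale as well. That scale put the median of all genes at 0.17, so rises would stay positive on it and this adds no support. HNRNPUL2-BSCL2 had a log2 fold change of 0.41 (adjusted p = 0.00283, SE 0.11), but its groups overlapped and it shares exons with HNRNPUL2 and BSCL2. Its spike-in value was 0.57. HNRNPA2B1 had a log2 fold change of 0.15 (adjusted p = 0.0483) with overlapping groups, and lost its call with DESeq2 (adjusted p = 0.116) and in 6 of 12 fits that left out a library, while spike-in scaling gave 0.31. HNRNPC and HNRNPK, both abundant, had log2 fold changes of -0.02 and 0.05 and did not pass the test (adjusted p = 0.458 and 0.123).

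**Figure D2:**
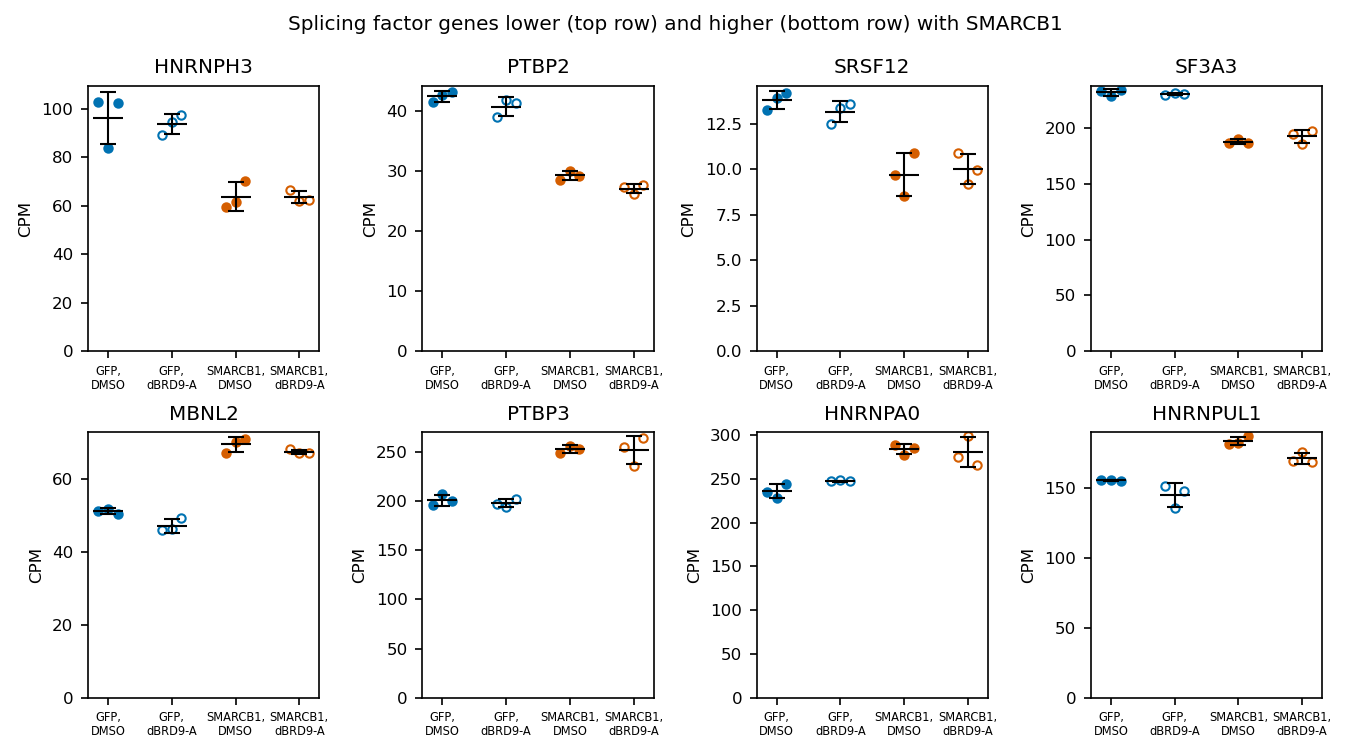
CPM on the TMM scale (vertical axis, from 0) of 8 splicing factor genes in each library by group; points are libraries, lines are the mean of 3 and bars the SD, and open points mark dBRD9-A. The top row shows the 4 largest falls and the bottom row the 4 largest rises with SMARCB1 in DMSO among called genes with replicates apart; on the spike-in scale SF3A3 in DMSO was not called, and HNRNPA0 and HNRNPUL1 turned lower under dBRD9-A.

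The SF3 subunits showed calls in 1 direction: 6 of 9 were lower with SMARCB1 in DMSO (66.7%, against 31.6% of all genes) and 0 were higher (33.5% of all genes). At an unadjusted p under 0.05 the count was also 6, as it was with DESeq2. Their summed share of gene counts was 0.1779% ± 0.0015 in GFP cells and 0.1623% ± 0.0021 in SMARCB1 cells (SD, n = 3), without overlap. SF3A3, a zinc finger subunit of SF3A, was at 233, 228 and 234 CPM in GFP cells and 186, 189.9 and 186 CPM in SMARCB1 cells. The groups were well apart and the log2 fold change was -0.31 (adjusted p = 1.71e-08, SE 0.03). SF3B5, a small SF3B subunit, was at 103, 103 and 109.8 CPM and then 89.8, 88.9 and 89.7 CPM, with a log2 fold change of -0.24 (adjusted p = 3.95e-06, SE 0.03). SF3B3, the scaffold of SF3B, was at 455, 449.5 and 458 CPM in GFP cells and 389.8, 393 and 398 CPM in SMARCB1 cells, with a log2 fold change of -0.21 (adjusted p = 9.88e-07, SE 0.02). SF3B6, which contacts the branch point, SF3A1 and SF3B2 were lower by log2 fold changes of -0.14, -0.10 and -0.08 (adjusted p = 0.00151, 0.0325 and 0.007). SF3B1, the largest SF3B subunit and the one most often mutated in myeloid disease, had a log2 fold change of 0.00 (adjusted p = 0.918), at 485, 466.5 and 479.8 CPM against 470.2, 479 and 485 CPM. No SF3 fall was called on the spike-in scale: SF3A3, SF3B5 and SF3B3 stayed negative at -0.14, -0.07 and -0.04, and SF3B6, SF3A1 and SF3B2 turned to 0.03, 0.07 and 0.09. The groups overlapped for SF3A1, and its call was lost in 4 of 12 fits that left out a library.

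Of the 3 factors at the 3' splice site, U2AF2, the subunit that binds the polypyrimidine tract, was called lower. U2AF2 was at 220.3, 226 and 225 CPM in GFP cells and 204, 209 and 209 CPM in SMARCB1 cells, apart, with a log2 fold change of -0.11 (adjusted p = 0.0037, SE 0.03) that turned to 0.06 on the spike-in scale. Its partner U2AF1, which reads the AG dinucleotide, had a log2 fold change of 0.00 (adjusted p = 0.957). SF1, the branch point binding protein, had a log2 fold change of 0.01 (adjusted p = 0.829).

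Among the 6 tested regulators, 4 rose and 1 fell in DMSO (66.7% and 16.7%, against 33.5% and 31.6% of all genes). PTBP2, the neural polypyrimidine tract binding protein, was at 41.4, 42.5 and 43.1 CPM in GFP cells and 28.6, 30 and 29.2 CPM in SMARCB1 cells. The groups were far apart, and the log2 fold change was -0.53 (adjusted p = 1.54e-09, SE 0.04), or -0.37 on the spike-in scale. Its paralogues moved the other way. PTBP3, once described in blood cells as ROD1, was at 196, 207 and 199.6 CPM and then 248, 256 and 253 CPM, with a log2 fold change of 0.33 (adjusted p = 2.73e-07, SE 0.04). PTBP1, the widely expressed paralogue, was at 342, 353 and 338 CPM in GFP cells and 384, 379 and 388 CPM in SMARCB1 cells, with a log2 fold change of 0.16 (adjusted p = 0.000633, SE 0.03). The muscleblind gene MBNL2 rose the most of all members with replicates apart. It was at 51.4, 51.9 and 50.5 CPM in GFP cells and 67.3, 70.2 and 71 CPM in SMARCB1 cells, with a log2 fold change of 0.44 (adjusted p = 2.04e-09, SE 0.03). MBNL1 was at 71.6, 75.8 and 72.3 CPM and then 81, 83.7 and 79.8 CPM, with a log2 fold change of 0.15 (adjusted p = 0.000575, SE 0.03). On the spike-in scale the 4 rises were 0.32 to 0.61. The median of all genes was 0.17 there, so rises would stay positive and this adds no support. RBFOX2, which binds the GCAUG element, had a log2 fold change of -0.05 and did not pass the test (adjusted p = 0.102).

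Ratios of counts within a library do not depend on library scaling. The pairs were formed after the values had been seen, so the ratios are a description with no test. Ranges over the 6 GFP and the 6 SMARCB1 libraries were compared for 27 pairs from the same family or complex. The ranges did not overlap for 13 of the 27 pairs, which are given first. Several of these pairs share a gene, HNRNPH3 and PTBP2 among them, so they are not separate observations. How often this happens for other pairs of genes was not computed. The ratio of PTBP2 to PTBP1 counts was 0.105 to 0.128 in GFP libraries and 0.0652 to 0.0792 in SMARCB1 libraries. PTBP3 to PTBP2 went from 4.63 to 5.06 in GFP libraries to a range of 8.53 to 9.57 in SMARCB1 libraries. HNRNPH3 to HNRNPH1 was 0.148 to 0.181 without and 0.111 to 0.129 with SMARCB1. MBNL2 to MBNL1 was 0.617 to 0.717 without and 0.757 to 0.89 with SMARCB1, and HNRNPUL1 to HNRNPU 0.141 to 0.16 against 0.181 to 0.204. Within SF3A, SF3A3 to SF3A2 was 11.6 to 13.2 without and 8.29 to 10.8 with SMARCB1. Ranges also did not overlap for HNRNPA1 to HNRNPA0, HNRNPH2 to HNRNPH1, HNRNPH3 to HNRNPH2 and HNRNPF to HNRNPH3. The same held for HNRNPAB to HNRNPD, HNRNPLL to HNRNPL and SF3A2 to SF3A1. Pairs with overlapping ranges included HNRNPF to HNRNPH1, at 1.01 to 1.11 against 0.988 to 1.05, and U2AF2 to U2AF1, at 5.13 to 5.63 against 4.77 to 5.15.

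**Figure D3:**
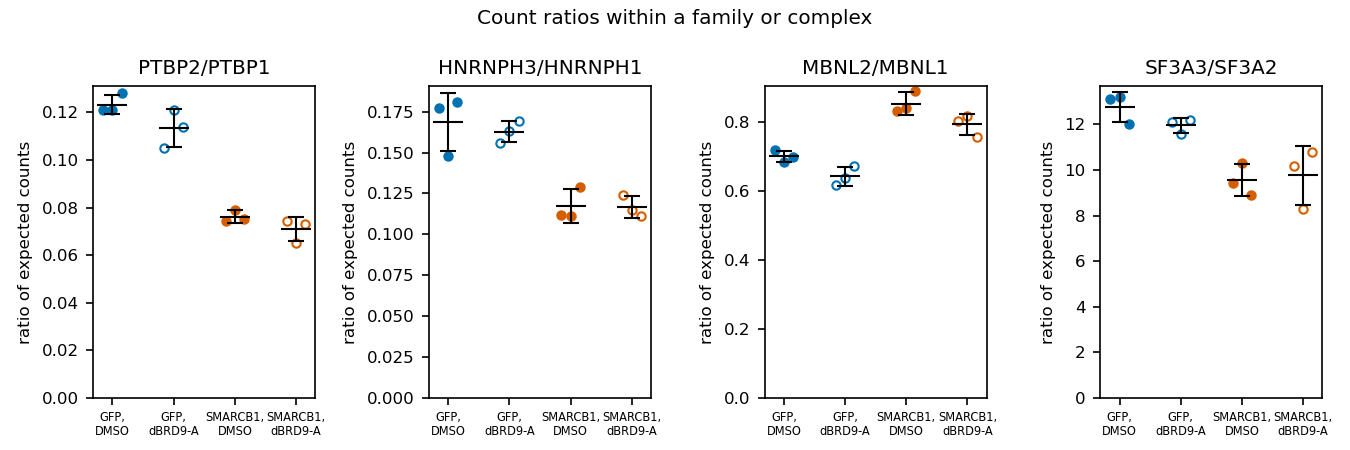
Ratio of expected counts (vertical axis, from 0) for 4 gene pairs in each library by group; points are libraries, lines the mean of 3 and bars the SD, and open points mark dBRD9-A. PTBP2 to PTBP1 is at most 0.0792 in SMARCB1 libraries and at least 0.105 in GFP libraries, and MBNL2 to MBNL1 is higher with SMARCB1 in either treatment.

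The same comparison under dBRD9-A used 6 other libraries and shares none with the one in DMSO. It sets the same inducible lines against each other, and the fit estimated the spread over all libraries together. A difference between the lines would recur in both comparisons, so their agreement cannot tell it apart from an effect of SMARCB1. There 29 of 52 members were called, 11 higher and 18 lower, which is 55.8%, 21.2% and 34.6% of the members. All genes had 63.3% called, 33.0% higher and 30.4% lower. Genes of at least 100 CPM had 77.3% called. Called in both comparisons were 25 members, all 25 with the same sign (10 higher and 15 lower), which is 75.8% of the 33 and 86.2% of the 29. For all genes 8685 of 8728 had the same sign, and the shared calls were 85.2% and 87.5% of the lists. On the spike-in scale, where the median of all genes was -0.32, 47 members were called, 46 of them lower, and MBNL2 was the 1 higher.

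PTBP2, HNRNPH3, SRSF12 and SF3A3 had the 4 largest falls, and MBNL2 and PTBP3 the 2 largest rises, as in DMSO among genes with replicates apart. PTBP2 was at 38.9, 41.8 and 41.4 CPM in GFP cells and 27.3, 26.2 and 27.6 CPM in SMARCB1 cells, both with dBRD9-A, with a log2 fold change of -0.59 (adjusted p = 6.43e-10, SE 0.04). HNRNPH3 was at 89.1, 94.6 and 97.3 CPM and then 66.4, 61.9 and 62.4 CPM, with a log2 fold change of -0.56 (adjusted p = 1.58e-06, SE 0.07). The groups of either gene lay far apart. SRSF12 was at 12.5, 13.4 and 13.6 CPM in GFP cells and 10.9, 9.2 and 9.94 CPM in SMARCB1 cells, with a log2 fold change of -0.40 (adjusted p = 0.000347, SE 0.08). SF3A3 was at 229, 231 and 229.8 CPM and then 194, 186 and 197 CPM, with a log2 fold change of -0.26 (adjusted p = 1.97e-07, SE 0.03). All 4 were apart between the groups. They were lower on the spike-in scale as well, where the median of all genes was -0.32, so falls would stay negative and this adds no support. MBNL2 was at 46, 46.2 and 49.3 CPM in GFP cells and 68.1, 67.3 and 67 CPM in SMARCB1 cells, a log2 fold change of 0.52 (adjusted p = 3.64e-10, SE 0.03) that was 0.19 on the spike-in scale (adjusted p = 0.0187). PTBP3 was at 197, 194 and 202 CPM and then 255, 236 and 264 CPM, with a log2 fold change of 0.35 (adjusted p = 1.79e-07, SE 0.04) that fell to 0.02 on the spike-in scale. HNRNPUL1 was at 152, 136 and 148 CPM in GFP cells and 169.7, 176 and 169 CPM in SMARCB1 cells, and MBNL1 at 74.6, 72.5 and 73.5 CPM and then 85, 82.3 and 88.5 CPM. Their log2 fold changes were 0.24 and 0.21 (adjusted p = 8.95e-06 and 2.9e-05), with groups apart, and turned to -0.09 and -0.12 on the spike-in scale.

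By role, 1 of 11 SR proteins rose and 3 fell under dBRD9-A, and 6 of 23 hnRNPs rose and 6 fell. The shares were 9.09% and 27.3% for SR proteins and 26.1% and 26.1% for hnRNPs, against 33.0% and 30.4% of all genes. Of the SF3 subunits, 6 of 9 fell and 0 rose (30.4% and 33.0% of all genes), with 7 of 9 at an unadjusted p under 0.05 in either direction and 6 lower and 0 higher with DESeq2. U2AF2 and SF1 fell, with log2 fold changes of -0.18 and -0.10 (adjusted p = 6.48e-05 and 0.0163). Of the 6 regulators, 4 rose and PTBP2 fell (66.7% and 16.7%, against 33.0% and 30.4% of all genes). With spike-in scaling all of these rises except those of MBNL2 and PTBP3 turned lower. SF3B1, which had a log2 fold change of 0.00 in DMSO, was at -0.07 and was called (adjusted p = 0.019), whereas SF3B2 had -0.03 and was not called. U2AF2, SF1 and SF3B1 were at -0.51, -0.43 and -0.40 with spike-in scaling. HNRNPA1 had a log2 fold change of -0.07 (adjusted p = 0.068), HNRNPDL one of -0.04 (adjusted p = 0.19) and HNRNPA1L3 one of -0.09 (adjusted p = 0.119). The difference of these values from those in DMSO is the interaction given below, which called no member.

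**Figure D4:**
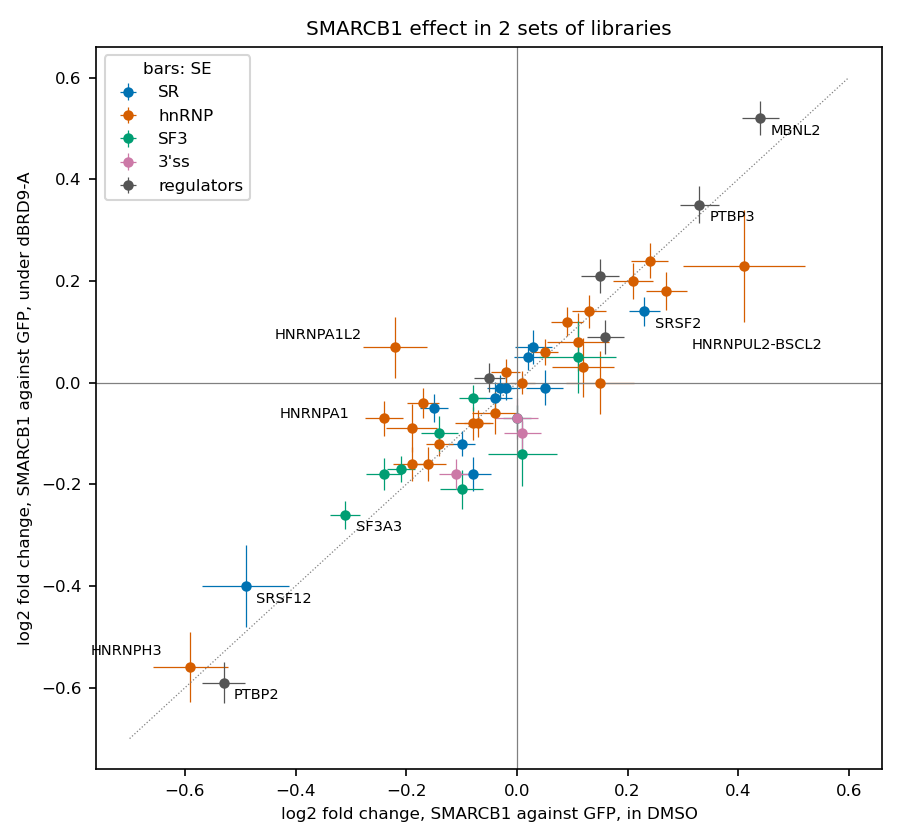
Log2 fold change of SMARCB1 against GFP in DMSO (horizontal) and under dBRD9-A (vertical) for the 52 tested splicing factor genes on the TMM scale; points are genes coloured by role, bars are SE, and the dotted line marks equal values. HNRNPH3, PTBP2 and SRSF12 lie at the lower left and MBNL2 and PTBP3 at the upper right, with HNRNPA1L2 at -0.22 in DMSO and 0.07 under dBRD9-A; spike-in scaling would shift all points by 0.17 rightward and 0.32 downward in the median.

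Promoter sequence was examined for the 3 members with the largest falls and for MBNL2, which had the largest rise among members with replicates apart. They were picked by the size of their change in these data. They are among the 25 members called with the same sign in both sets of libraries. RefSeq promoter windows on GRCh38.p14, from 250 bases before to 50 after an annotated start, were found for 50 of the 57 genes, 71 windows in all. Both strands were searched for an E-box (CACGTG) and a GC box (GGGCGG). The search also covered a CCAAT box (of those letters) and an AP-1 site (TGA, any base, then TCA). It further covered the core promoter element TATAAA, which gives the TATA box its name, and a cyclic AMP response element or CRE (TGACGTCA), and none of these motifs holds another. The E-box, bound by MYC and its relatives, was in 15.5% of the members' windows and 7.26% of all 35116 windows. The GC box, bound by SP factors, was in 62.0% and 45.0%, and the CCAAT box, bound by NF-Y, in 38.0% and 34.6%. The TATA box was in 11.3% and 11.5%, the AP-1 site in 2.82% and 7.71%, and the CRE in 0% and 1.85%. These shares are a description, since members have unequal numbers of windows and a median GC content of 64.0% against 58.7% for all windows.

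The window at the most upstream start of each gene follows, 5′ to 3′ on the gene's strand, with matches to the 6 motifs in capitals. PTBP2 and SRSF12 have 1 window each in the table, HNRNPH3 has 3 and MBNL2 has 2, and which start G401 cells use was not measured. The windows lie at chr1:96722388-96722687 (PTBP2, + strand), chr6:89118022-89118321 (SRSF12, - strand), chr10:68331443-68331742 (HNRNPH3, + strand) and chr13:97141584-97141883 (MBNL2, + strand).
PTBP2: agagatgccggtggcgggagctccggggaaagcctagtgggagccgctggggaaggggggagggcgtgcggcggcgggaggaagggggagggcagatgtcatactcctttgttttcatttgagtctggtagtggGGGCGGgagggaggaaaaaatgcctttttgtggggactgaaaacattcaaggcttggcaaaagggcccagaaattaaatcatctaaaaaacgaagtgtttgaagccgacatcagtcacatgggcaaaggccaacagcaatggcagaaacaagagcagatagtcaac
SRSF12: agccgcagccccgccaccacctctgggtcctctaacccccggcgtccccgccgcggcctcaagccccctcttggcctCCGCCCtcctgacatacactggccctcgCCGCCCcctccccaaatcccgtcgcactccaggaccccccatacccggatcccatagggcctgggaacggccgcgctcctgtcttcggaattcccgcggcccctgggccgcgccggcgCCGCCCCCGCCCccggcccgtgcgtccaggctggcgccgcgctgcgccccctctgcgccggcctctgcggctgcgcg
HNRNPH3: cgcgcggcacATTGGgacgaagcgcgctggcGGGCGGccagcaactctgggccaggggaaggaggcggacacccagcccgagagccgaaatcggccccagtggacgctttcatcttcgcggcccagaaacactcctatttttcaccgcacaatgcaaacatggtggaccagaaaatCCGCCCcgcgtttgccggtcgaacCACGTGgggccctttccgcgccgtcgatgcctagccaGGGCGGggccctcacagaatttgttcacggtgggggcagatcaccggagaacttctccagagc
MBNL2: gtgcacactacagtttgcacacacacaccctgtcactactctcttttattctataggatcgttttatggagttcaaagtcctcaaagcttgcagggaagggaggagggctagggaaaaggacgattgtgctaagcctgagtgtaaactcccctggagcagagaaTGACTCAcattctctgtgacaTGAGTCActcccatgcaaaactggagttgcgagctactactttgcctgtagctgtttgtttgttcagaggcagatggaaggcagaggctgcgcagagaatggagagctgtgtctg

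The capitals mark 1 GC box in PTBP2, beginning 116 bases before the start. SRSF12, with a GC content of 77.0%, has 4 GC boxes, at 173, 145, 27 and 21 bases before the start. HNRNPH3 has 1 E-box at 50 bases, 1 CCAAT box at 240 bases and 3 GC boxes at 219, 74 and 13 bases before the start. MBNL2 has 2 AP-1 matches, at 86 and 65 bases before this start, and none of the other 5 motifs, while its second window has 2 CCAAT boxes. None of the 6 motifs is common to all 3 genes that fell other than the GC box, which 45.0% of all windows hold.

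dBRD9-A in GFP cells changed 8 of the 52 members, 3 upward and 5 downward (15.4%, 5.77% and 9.62%), with edgeR's quasi-likelihood test. Of all genes 15.9% were called, 7.43% higher and 8.47% lower. Genes of at least 100 CPM had 23.9% called. The groups did not overlap for any of the 8, a separation seen in 34.0% of all tested genes. No change reached an absolute log2 fold change of 0.5. Leaving out replicate 1, 2 or 3 of GFP cells in DMSO gave 3, 5 and 5 calls, and leaving out replicate 1, 2 or 3 of GFP cells with dBRD9-A gave 4, 3 and 5. The comparison shares the GFP libraries in DMSO with that of SMARCB1 in DMSO, so falls of the same gene in the 2 are not independent. On the spike-in scale, where the median of all genes was 0.36, 51 members were higher and 0 lower.

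The falls were led by HNRNPA1, which was at 1503, 1346 and 1464 CPM in DMSO and 1259, 1290 and 1238 CPM with dBRD9-A. All 3 libraries with dBRD9-A were below those in DMSO, and the log2 fold change was -0.19 (adjusted p = 0.000779, SE 0.03), or 0.17 on the spike-in scale. The sum of HNRNPA1 with its family rows had a log2 ratio of -0.19. HNRNPDL, an hnRNP D-like protein, was at 329.6, 317 and 319 CPM and then 288, 283 and 281 CPM, with a log2 fold change of -0.18 (adjusted p = 0.000279, SE 0.03) on the TMM scale and 0.18 on the spike-in scale. HNRNPA1L2 and HNRNPA1L3 had log2 fold changes of -0.19 and -0.16 (adjusted p = 0.0336 and 0.03), calls lost in 5 and 6 of 12 fits that left out a library, and were 0.17 and 0.20 on the spike-in scale. MBNL2, which was higher in SMARCB1 cells than in GFP cells, was at 51.4, 51.9 and 50.5 CPM in DMSO and 46, 46.2 and 49.3 CPM with dBRD9-A. Its log2 fold change was -0.12 (adjusted p = 0.0238, SE 0.03), a call lost in 4 of 12 fits that left out a library, and turned to 0.24 on the spike-in scale.

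The rises were those of SF3B4, SRSF4 and SF3A1. SF3B4, the SF3B subunit that binds upstream of the branch point, was at 15.1, 15.2 and 15.2 CPM in DMSO and 18, 18.1 and 15.8 CPM with dBRD9-A. Replicate 3 with dBRD9-A lay close to the DMSO values, and the log2 fold change was 0.19 (adjusted p = 0.045, SE 0.06). SRSF4, an SR protein with a long RS domain, was at 75.7, 73.2 and 76.1 CPM and then 81.7, 85.9 and 82 CPM, with a log2 fold change of 0.15 (adjusted p = 0.00559, SE 0.03). SF3A1, which also contacts the U1 snRNP, was at 114, 106 and 116 CPM and then 121, 122 and 120.3 CPM, with a log2 fold change of 0.12 (adjusted p = 0.0499, SE 0.04). All 3 were higher on the spike-in scale. That scale put the median of all genes at 0.36, so rises would stay positive on it and this adds no support. The SRSF4 call held in each fit that left out a library, and those of SF3B4 and SF3A1 were lost in 7 and 8 of 12. DESeq2 did not call SF3B4 (adjusted p = 0.0553).

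dBRD9-A in SMARCB1 cells gave 0 calls among the 52 members with edgeR's quasi-likelihood test, 0 with DESeq2 and 0 in every fit that left out a library. Of all genes 1.93% were called, and of genes of at least 100 CPM 3.32%. At an unadjusted p under 0.05, 3 members passed (5.77%), against 12.7% of all genes. These 3 were HNRNPUL1, PTBP2 and SRSF4, named after their values were seen, with log2 fold changes of -0.10, -0.12 and 0.08 (adjusted p = 0.183, 0.205 and 0.282). PTBP2 was at 28.6, 30 and 29.2 CPM in DMSO and 27.3, 26.2 and 27.6 CPM with dBRD9-A. Spike-in scaling called 2 members lower, HNRNPUL1 at -0.24 and PTBP2 at -0.25. The members' median log2 fold change, without its sign, was 0.0233, against 0.0519 in GFP cells. It was 0.0604 against 0.0949 for all tested genes, and 0.0284 against 0.0498 for genes of at least 100 CPM.

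**Figure D5:**
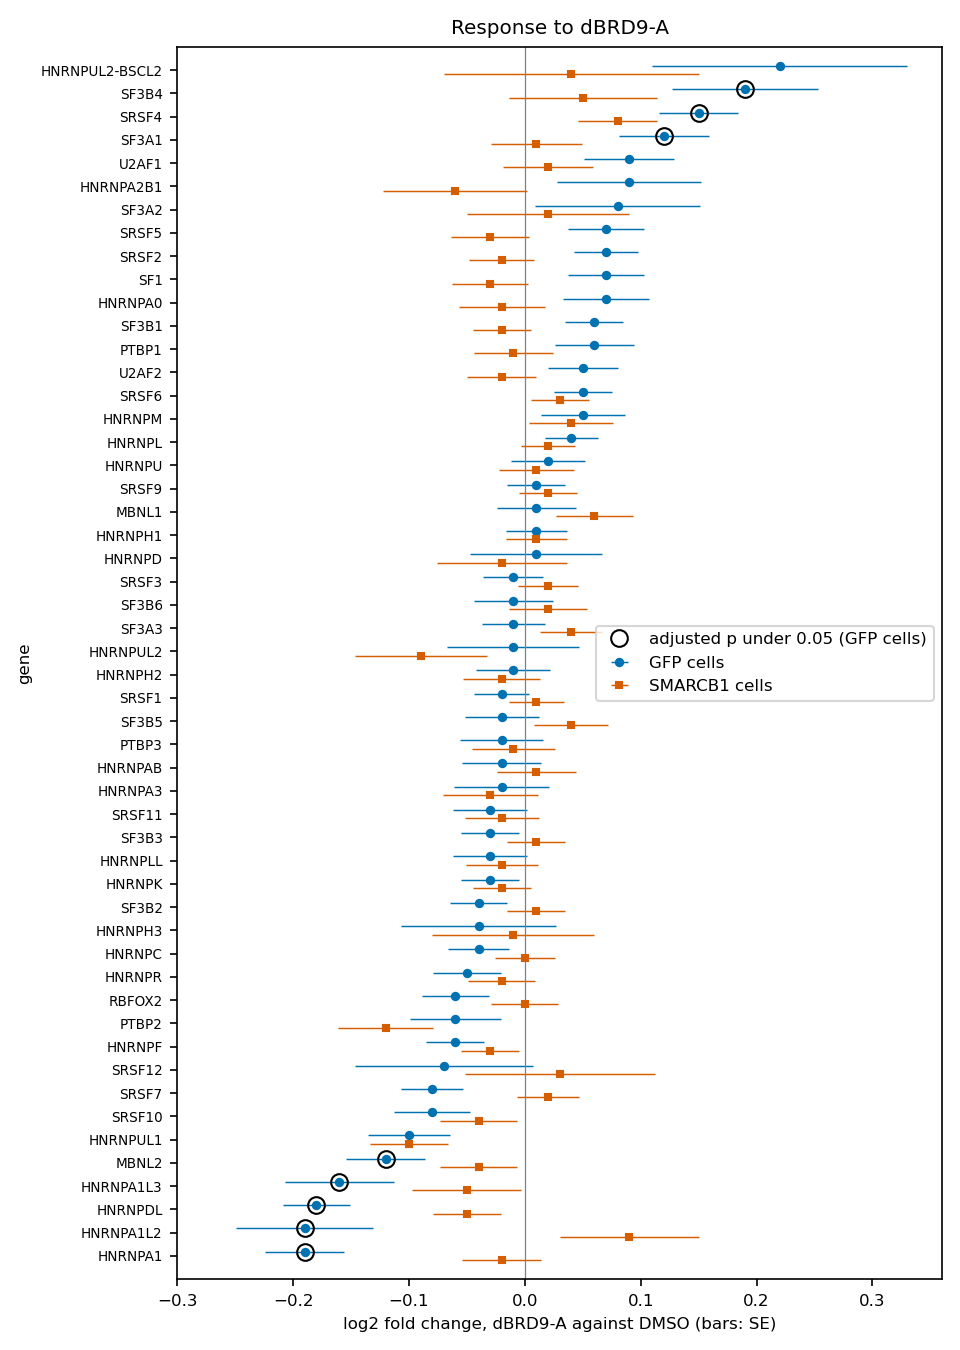
Log2 fold change of dBRD9-A against DMSO (horizontal axis, TMM scale) for the 52 tested splicing factor genes (vertical), in GFP cells (circles) and SMARCB1 cells (squares); bars are SE and rings mark the 8 genes with adjusted p under 0.05 in GFP cells. The ringed genes run from HNRNPA1 at -0.19 to SF3B4 at 0.19, and no gene passed the test in SMARCB1 cells; on the spike-in scale the 5 ringed falls turned positive.

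The difference between the responses to dBRD9-A in SMARCB1 and GFP cells, tested as an interaction, called 0 of 52 members with edgeR's quasi-likelihood test. Of all genes 3.8% were called, and of genes of at least 100 CPM 6.74%. At an unadjusted p under 0.05, 8 members passed (15.4%), against 15.9% of all genes. The lowest p belonged to HNRNPA1, with an interaction of 0.16 (adjusted p = 0.0685, SE 0.05), its response being -0.19 in GFP cells and -0.02 in SMARCB1 cells. DESeq2 called HNRNPA1 alone (adjusted p = 0.024), and so did edgeR when replicate 2 of SMARCB1 cells with dBRD9-A was left out. When replicate 2 of GFP cells in DMSO was left out, or no filter on low counts was used, HNRNPA1 and HNRNPA1L2 were called. HNRNPA1 and HNRNPA1L2 were singled out after their values had been seen. On the spike-in scale, where the median of all genes was -0.49, 51 members were called and all 51 were lower. SMARCB1 itself was at 1810 to 1910 CPM in SMARCB1 cells in DMSO and 1280 to 1330 CPM with dBRD9-A. The part of this difference in the interaction, and in the SMARCB1 comparison under dBRD9-A, was not tested.

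Beyond these families, 115 of 128 other splicing genes on a list of snRNP proteins, spliceosome factors, SR protein kinases and further regulators were tested. With SMARCB1 in DMSO 22 rose and 44 fell (19.1% and 38.3%), against 33.5% and 31.6% of all genes. Under dBRD9-A 22 rose and 51 fell (19.1% and 44.3%), against 33.0% and 30.4% of all genes. Of 13 genes of the U4/U6.U5 tri-snRNP, 61.5% were lower in DMSO and 69.2% under dBRD9-A. SF3 subunits had 66.7% lower in either treatment. In the other classes of the list the share lower was 16.7% to 47.1% in DMSO and 22.2% to 54.5% under dBRD9-A. The larger falls were outside the SR, hnRNP and SF3 families. CTNNBL1, a protein of the Prp19-associated spliceosome, was at 139.7 ± 3.33 CPM in GFP cells and 70.4 ± 2.57 CPM in SMARCB1 cells in DMSO (SD, n = 3), with a log2 fold change of -0.99 (adjusted p = 7.95e-15, SE 0.03). AQR, an intron-binding helicase, was at 312 ± 4.15 and 170.1 ± 5.1 CPM, a log2 fold change of -0.87 (adjusted p = 8.73e-14, SE 0.03). SNRPN, an Sm protein gene at an imprinted locus, was at 27.4 ± 0.682 and 15.2 ± 2.57 CPM, a log2 fold change of -0.84 (adjusted p = 4.57e-08, SE 0.08). Under dBRD9-A the log2 fold changes of CTNNBL1 and AQR were -0.97 and -0.80 (adjusted p = 1.36e-14 and 3.5e-13), and that of the regulator CELF5 was -0.85 (adjusted p = 7.19e-05). These falls were called on the spike-in scale as well. Under dBRD9-A that scale put the median of all genes at -0.32, so falls would stay negative on it.

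Of the rises, RALY, an hnRNP C-related RNA binding protein, was at 80.5 ± 0.825 CPM in GFP cells and 112.5 ± 4.51 CPM in SMARCB1 cells in DMSO, a log2 fold change of 0.48 (adjusted p = 3.59e-09, SE 0.04). SNRNP27, a tri-snRNP protein, and ZMAT5, of the minor spliceosome, had log2 fold changes of 0.34 and 0.31 (adjusted p = 4.24e-06 and 0.000636). The 3 rises were 0.65, 0.50 and 0.48 with spike-in scaling. Under dBRD9-A, RALY, the second-step factor PRPF18 and SNRNP27 had log2 fold changes of 0.46, 0.41 and 0.27 (adjusted p = 1.05e-08, 1.68e-06 and 6.83e-05). With spike-in scaling these were 0.13, 0.08 and -0.06 and were not called.

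dBRD9-A in GFP cells called 15 of the 115 other splicing genes, 10 higher and 5 lower (13.0%, 8.7% and 4.35%). Over all genes these shares were 15.9%, 7.43% and 8.47%. RBM47, SNRPA1, which encodes the U2 snRNP protein A', and SNRNP35, of the U11/U12 snRNP, had log2 fold changes of 0.28, 0.26 and 0.20 (adjusted p = 0.000133, 0.00538 and 0.031), and 0.64, 0.62 and 0.56 with spike-in scaling. The SR protein kinase CLK2, LSM5 of the LSm ring and SYNCRIP, also called hnRNP Q, had log2 fold changes of -0.17, -0.16 and -0.15 (adjusted p = 0.0238, 0.00187 and 0.00467). Spike-in scaling turned these 3 falls to 0.18, 0.20 and 0.21. In SMARCB1 cells 0 of the 115 were called with edgeR's quasi-likelihood test, 0 with DESeq2, and 10 passed at an unadjusted p under 0.05 (8.7%, against 12.7% of all genes).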

How the data were processed

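Expected counts for each gene stand in the 3 tables deposited by the authors, and RSEM estimates them by sharing reads that map to several genes. STAR, RSEM 1.3.1, DESeq2 and the builds GRCh37 and hg19 are named in the submitters' processing notes, and the annotation and use of strand are not given in the sources used here. Per the labels' protocols, libraries came from a stranded mRNA kit. Libraries present in more than 1 table had identical values (6 of 6 repeated columns), and 40 spike-in identifiers entered neither library sizes nor tests.

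Symbols were matched by unversioned identifier for 51996 of 57820 genes, and gene types, exon lengths and overlapping genes were taken from GENCODE release 29, which may differ from the authors' annotation. Expected counts were rounded and fitted in R 4.3.3 with edgeR 4.0.16: filterByExpr with minimum count 10, TMM factors (0.9765 to 1.016), 1 coefficient per group over all 12 libraries, the quasi-likelihood F test, and Benjamini-Hochberg adjustment over 15750 genes. Genes were called at adjusted p under 0.05. Adjusted p values are from this fit unless another tool is named. DESeq2 1.42.0 served as an alternative. The 34.97 to 58.54 megacounts per library set the precision, and the floor of 3 counts covers only counting error, because without molecular identifiers several reads can stem from 1 molecule. Libraries of 1 group were further apart than counting noise (chi-square per degree of freedom 3.02 to 26.2), so each library counted as 1 sample.

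Members and lists were chosen with earlier results of these data known. Values in each library are given, per comparison, for the called members with the 4 largest changes in each direction, given a mean of at least 50 counts and groups apart, and other members are given to describe their families. For the other splicing genes the limit was 3 per direction. Alternatives were other size factors, spike-in scaling, no filter on low counts, only the compared groups, a replicate block, a minimum absolute log2 fold change of 0.5, DESeq2, and leaving out each library.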

Additional observations from a re-analysis of the deposited data

How the results depend on the processing

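The count of members called moved by over 1.5 times in the following cases. Spike-in scaling gave 51 for dBRD9-A in GFP cells (8 otherwise), 2 for dBRD9-A in SMARCB1 cells (0 otherwise), 47 for SMARCB1 under dBRD9-A (29 otherwise) and 51 for the interaction (0 otherwise). Over all 15750 genes it called 11310, 873, 11175 and 11270 in that order (2504, 304, 9975 and 598 otherwise). Requiring an absolute log2 fold change of 0.5 left 2 for SMARCB1 in DMSO, 0 for dBRD9-A in GFP cells and 3 for SMARCB1 under dBRD9-A. For the interaction, DESeq2 gave 1 and no filter on low counts gave 2. Leaving out 1 library gave 29 to 34 for SMARCB1 in DMSO, 3 to 10 for dBRD9-A in GFP cells, 0 for dBRD9-A in SMARCB1 cells, 28 to 31 for SMARCB1 under dBRD9-A and 0 to 2 for the interaction. Apart from the replicate block, the other alternatives stayed within 1.5 times, and the cause of the changes was not tested.

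With the replicate number as a replicate block, the counts were 31, 5, 0, 28 and 0 in the order SMARCB1 in DMSO, dBRD9-A in GFP cells, dBRD9-A in SMARCB1 cells, SMARCB1 under dBRD9-A and interaction. The labels do not say that a number marks a shared culture or day. Deviations of same-numbered libraries from their group means correlated at -0.202 to 0.159 over 10437 genes (18 pairs, 1 above 0.1), and those of other libraries at -0.176 to 0.245, so the numbers were not taken to pair the samples.

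Among called members, directions reversed under spike-in scaling and under no other alternative run. For SMARCB1 in DMSO, log2 fold changes turned to 0.02 (HNRNPF), 0.10 (HNRNPH1), 0.01 (HNRNPH2), 0.09 (HNRNPU), 0.07 (SF3A1), 0.09 (SF3B2), 0.03 (SF3B6), 0.07 (SRSF6), 0.02 (SRSF7) and 0.06 (U2AF2). For dBRD9-A in GFP cells they turned to 0.17 (HNRNPA1), 0.17 (HNRNPA1L2), 0.20 (HNRNPA1L3), 0.18 (HNRNPDL) and 0.24 (MBNL2). For SMARCB1 under dBRD9-A they turned to -0.15 (HNRNPA0), -0.27 (HNRNPK), -0.19 (HNRNPLL), -0.13 (HNRNPM), -0.21 (HNRNPR), -0.09 (HNRNPUL1), -0.12 (MBNL1), -0.24 (PTBP1) and -0.19 (SRSF2). The 5 genes that the filter removed had at most 14 counts in any library, and no test of their levels is given.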
